A study of Mus musculus with 6 samples.

Results

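The genes described here are 42 genes of the lysosome, chosen by name as a functional group: proteases, hydrolases, membrane proteins, sorting receptors and transcription factors. All 42 were found among the 23337 genes of the deposited count table, and 39 of them had enough counts to be tested with 11283 genes in all. The cells were mouse (C57BL6) granulocyte-monocyte progenitors from bone marrow that carried ER-HOXA9. ER-HOXA9 is a fusion of the hormone-binding part of the estrogen receptor with the homeobox factor HOXA9, and it keeps such progenitors immature and dividing as long as beta-estradiol is in the medium. Polyadenylated RNA was sequenced from 3 groups of 2 biological replicates each. In the drug group, cells were kept for 3 days with 200 nM GSK-LSD1, 5 µM mercaptopurine and 5 µM cerulenin in combination. GSK-LSD1 blocks the histone demethylase LSD1, mercaptopurine is a purine analogue that disturbs nucleotide synthesis, and cerulenin blocks fatty acid synthase. In the vehicle group, cells were kept for 3 days with the solvent DMSO, and in the untreated group RNA was taken at day 0. All groups shared ER-HOXA9 and the medium, RPMI with 10% heat-inactivated serum, 4 mM glutamine, stem cell factor and 0.5 µM beta-estradiol, so beta-estradiol was present in all of them. The drugs were given together, so no change can be assigned to 1 of them, and the labels do not say whether the cells were a clone.

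The lysosome is the acidic compartment in which cells break down proteins, lipids, glycans and glycogen taken up from outside or delivered by autophagy. Most of its soluble enzymes are made in the endoplasmic reticulum, tagged with mannose phosphate in the Golgi and carried onward by sorting receptors, while its membrane proteins shield the lumen and move ions and breakdown products. The transcription factors TFEB and TFE3 bind E-box letters in the promoters of many of these genes, an element known as the CLEAR motif, and phagocytes such as macrophages and neutrophils are rich in lysosomal enzymes.

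Total counts per library ranged from 11305666 to 16948697. Rn45s, the ribosomal RNA precursor, took 15.7% and 15.9% of counts in the drug libraries, 16.1% and 14.6% in the vehicle libraries, and 20.4% and 24.6% in the untreated libraries. Replicates differed by more than counting error in each group: the chi-square per degree of freedom over genes without Rn45s was 1.83 for the drugs, 4.87 for vehicle and 7.70 for untreated cells. Levels are given as CPM, counts per 1000000 counts of a library after scaling by the trimmed mean of M values (TMM). A gene is called when its p from edgeR's quasi-likelihood test, adjusted by the Benjamini-Hochberg method over all 11283 tested genes, is under 0.05. All 10 markers of granulocyte-monocyte progenitors were tested, and they summed to 12156 and 12751 CPM with the drugs, 9857 and 10140 CPM with vehicle and 8801 and 9123 CPM in untreated cells. For the drugs over vehicle 4 of the 10, Kit, Fcgr3, Mpo and Flt3, were higher, 2, Ctsg and Cebpa, were lower, and Cd34, Elane, Prtn3 and Myb were not called.

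The promoter letters that TFEB and TFE3 are known for were looked up first, because they are read from sequence and not from expression. These letters are already known from the promoters of many lysosomal genes, so their shares among the members are a description only. RefSeq start sites on GRCm38.p6, the assembly that mm10 names, gave a window of 250 bases before to 50 bases after a start for 36 of the 42 members. These members had 43 windows, and a gene counted as holding letters when any of its windows did. The E-box CACGTG stood in the windows of 13 members, 36.1%, against 12.1% of the 8068 tested genes with a window and 8.09% of all 27025 genes with one. The longer TCACGTGA, which contains CACGTG, stood in 6 members, 16.7%, against 2.40% of tested genes and 1.12% of all genes. A palindrome that extends these 8 letters by 1 base on each side stood in 2 members, Cln3 and Igf2r, 5.56%, against 0.917% of tested genes and 0.37% of all genes. These 3 sets of letters read the same on both strands. CACATG, read on both strands, stood in 11 members, 30.6%, against 10.5% of tested genes and 15.9% of all genes, but in only 6 members when the bases after the start were left out. The 6 members with TCACGTGA are shown because they hold the longest form that several members share. Each is written 5′ to 3′ on the strand of its gene with TCACGTGA in capitals. About 20 bases are given on either side, but fewer after the last match in Ctsa.
Ctsa: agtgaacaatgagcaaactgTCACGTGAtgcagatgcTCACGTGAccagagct
Cln3: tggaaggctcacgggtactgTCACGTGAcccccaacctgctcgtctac
Ctsd: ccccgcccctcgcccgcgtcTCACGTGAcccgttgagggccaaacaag
Mcoln1: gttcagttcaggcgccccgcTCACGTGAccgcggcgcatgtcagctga
Igf2r: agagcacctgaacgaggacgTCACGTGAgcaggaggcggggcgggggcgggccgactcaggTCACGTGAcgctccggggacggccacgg
Gla: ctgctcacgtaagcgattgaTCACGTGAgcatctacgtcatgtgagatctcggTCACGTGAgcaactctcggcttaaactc
These stretches lie at chr2:164833740-164833792 on the plus strand, chr7:126583331-126583378 on the minus strand, chr7:142387899-142387946 on the minus strand, chr8:3500453-3500500 on the plus strand, chr17:12769687-12769775 on the minus strand and chrX:134601173-134601253 on the minus strand. Ctsa, Igf2r and Gla each hold the 8 letters at 2 places. The starts used for Ctsa and Cln3 lie inside the deposited gene models, and in Ctsa 1 of the 2 places lies in the first transcribed bases, while in Igf2r 1 ends just before them. Lamp1 is shown because it holds 4 copies of CACGTG, in capitals, in the 80 bases before its start at chr8:13159081-13159160 on the plus strand.
Lamp1: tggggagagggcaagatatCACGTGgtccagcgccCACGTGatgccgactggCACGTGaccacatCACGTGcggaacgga
The 4 members with the largest log2 changes with the drugs over vehicle, Ctss, Scpep1, Lgmn and Psap, are shown over the 150 bases before a start, with any CACGTG in capitals, because Lgmn holds these letters and the other 3 hold none in their windows.
Ctss: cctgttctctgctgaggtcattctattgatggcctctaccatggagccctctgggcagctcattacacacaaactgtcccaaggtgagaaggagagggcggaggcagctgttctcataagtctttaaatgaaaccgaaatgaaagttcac
Scpep1: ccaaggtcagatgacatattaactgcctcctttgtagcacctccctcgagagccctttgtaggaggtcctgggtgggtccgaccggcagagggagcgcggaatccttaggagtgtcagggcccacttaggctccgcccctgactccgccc
Lgmn: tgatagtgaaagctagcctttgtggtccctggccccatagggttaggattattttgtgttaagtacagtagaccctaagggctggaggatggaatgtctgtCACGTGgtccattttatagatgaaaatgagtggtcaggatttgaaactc
Psap: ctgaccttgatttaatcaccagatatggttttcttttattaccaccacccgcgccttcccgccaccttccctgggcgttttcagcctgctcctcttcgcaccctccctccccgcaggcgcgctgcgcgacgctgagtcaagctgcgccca
They lie at chr3:95526636-95526785 on the plus strand, chr11:88955443-88955592 on the minus strand, chr12:102439093-102439242 on the minus strand and chr10:60277478-60277627 on the plus strand. The start used for Lgmn lies inside the deposited gene model, and the window of its other RefSeq start holds no CACGTG. A match is only a run of letters, and the absence of one in this window says nothing of binding elsewhere.

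Most of the chosen lysosomal genes were higher with the 3 drugs than with vehicle. The members were chosen with earlier results of these data known, so their shares describe this list only. Of the 39 tested members, 27 were called higher, 69.2%, against 18.1% of all tested genes, and 1, M6pr, was called lower, 2.56%, against 13.8% of all tested genes. A rise of at least 1.5-fold was called for 12 members, against 9.86% of all tested genes, and no member fell by as much, against 2.66% of all tested genes. The median change of the tested members was 0.46 on the log2 scale, with quartiles of 0.27 and 0.61, against a median of 0.000753 for all tested genes, and 34 of the 39 estimates were above 0. Ctss passed the low-count filter only through the drug libraries, so its call had to be in that direction. Without it 26 of 38 members were called higher and the median was 0.46. In bulk RNA a change in the share of cells of a type and a change in the RNA of each cell cannot be told apart.

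**Figure D1:**
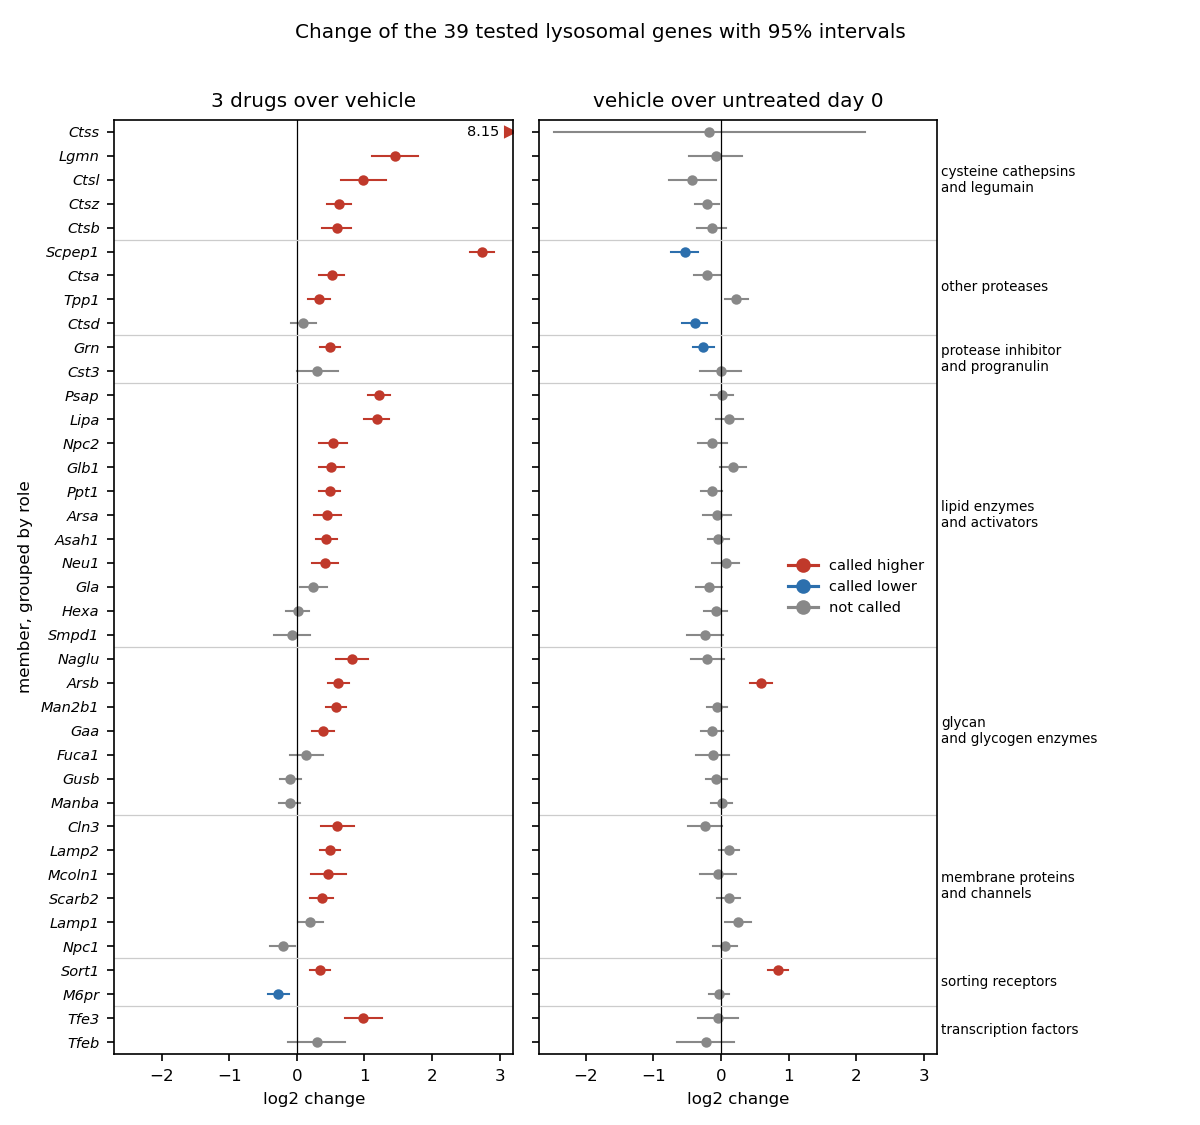
Log2 change (x axis) of the 39 tested lysosomal genes (y axis, grouped by role) with 95% intervals, for the drugs over vehicle on the left and vehicle over untreated day 0 on the right; red marks genes called higher, blue lower and grey not called. On the left 27 points are red and 1 is blue, with Ctss off the axis at 8.15, and on the right 2 are red and 3 blue.

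**Figure D2:**
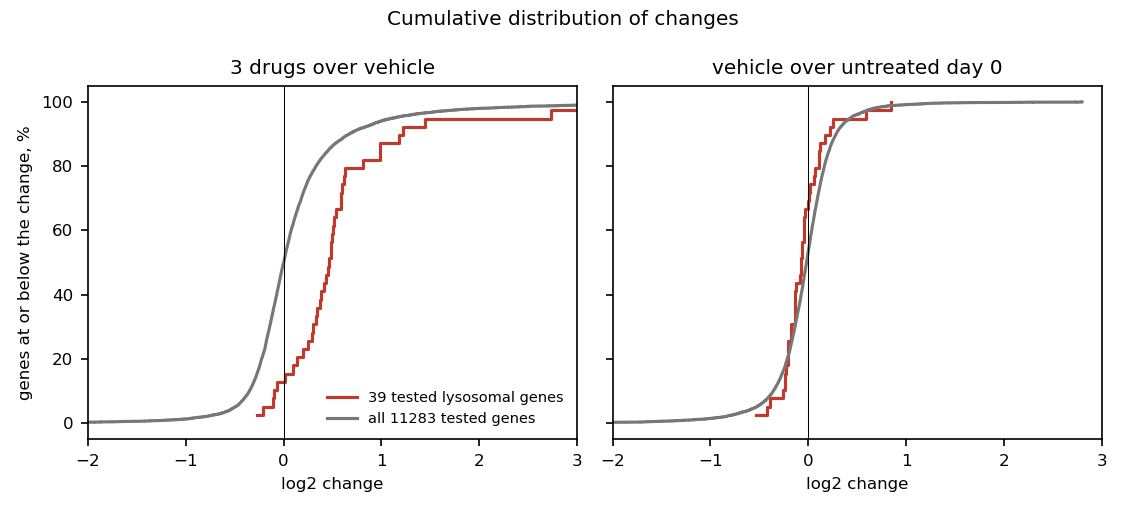
Percentage of genes (y axis) at or below a given log2 change (x axis) for the 39 tested lysosomal genes in red and all 11283 tested genes in grey. The red curve lies to the right of the grey one for the drugs over vehicle, with medians of 0.46 and 0.000753, and the curves lie close together for vehicle over day 0, with medians of −0.07 and −0.017; the axis ends at 3, so Ctss is not drawn on the left.

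Among the cysteine cathepsins and legumain, all 5 tested genes were called higher with the drugs, with a median log2 change of 0.99, but for Ctss the low-count filter fixed the direction. Without it 4 of 4 rose, with a median of 0.80. Ctss encodes cathepsin S, which trims the invariant chain of MHC class II in antigen-presenting cells and lies at chr3:95526786-95556403. It had 446 and 601 counts, or 35.7 and 38.8 CPM, in the drug libraries, 0 and 3 counts with vehicle and 3 and 1 counts in untreated cells. It was thus close to 0 in all 4 libraries without the drugs. The ratio of its pooled counts over pooled library sizes was 307 for the drugs over vehicle (exact 95% interval 104.8 to 1491) and 269 for the drugs over day 0 (104.7 to 988.9), intervals that cover counting error only. The fitted log2 change of 8.15 over vehicle is given as a description only, since it depends on the prior count, and it ranged from 7.16 to 12.01 over the alternatives.

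Legumain (Lgmn) is an asparagine-specific protease that also cuts cathepsin precursors into their mature form. It had 13.6 and 12.4 CPM with the drugs, 4.50 and 5.01 CPM with vehicle and 5.38 and 4.57 CPM in untreated cells. Both drug libraries stood above the other 4, and the rise over vehicle was 1.45 ± 0.158 (SE, adjusted p = 1.57e-05). Ctsl, encoding the endopeptidase cathepsin L, had 11.6 and 12.3 CPM with the drugs, 6.16 and 5.93 CPM with vehicle and 8.79 and 7.31 CPM in untreated cells. The groups did not overlap, and vehicle was lowest, but vehicle over day 0 was not called (adjusted p = 0.124). Its rise over vehicle was 0.99 ± 0.151 (adjusted p = 3.0e-04).

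Ctsz encodes cathepsin Z, a carboxypeptidase. Its levels were 75.3 and 80.8 CPM with the drugs, 48.4 and 53.0 CPM with vehicle and 60.3 and 56.4 CPM in untreated cells. Vehicle was lowest without overlap, but its difference from untreated cells was not called (adjusted p = 0.138). Ctsz rose by 0.62 ± 0.0792 over vehicle (adjusted p = 6.09e-05). Ctsb, encoding cathepsin B, had 101 and 113 CPM with the drugs, 64.7 and 77.8 CPM with vehicle and 84.0 and 72.4 CPM in untreated cells. Here vehicle and untreated cells overlapped, both drug libraries were higher, and the rise over vehicle was 0.59 ± 0.0987 (adjusted p = 5.84e-04). Ctsb overlaps Fdft1 and Ctsz overlaps Th1l on the opposite strand. Whether the counting used strand is not given in the labels, so some of their reads may belong to those neighbours.

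Cathepsins K and H were not detectable at this depth beyond a few reads. Ctsk, the collagen-degrading cathepsin of osteoclasts, had 0 and 3 counts with the drugs, 1 and 1 with vehicle and 2 and 2 in untreated cells. It lies 17423 bp from Ctss on chromosome 3, in the same orientation, and the ratio of its pooled counts over pooled library sizes, drugs over vehicle, was 1.32, with an exact 95% interval of 0.151 to 15.8. Ctsh, encoding an aminopeptidase, had 4 and 1 counts with the drugs, 0 and 1 with vehicle and 5 and 1 in untreated cells.

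**Figure D3:**
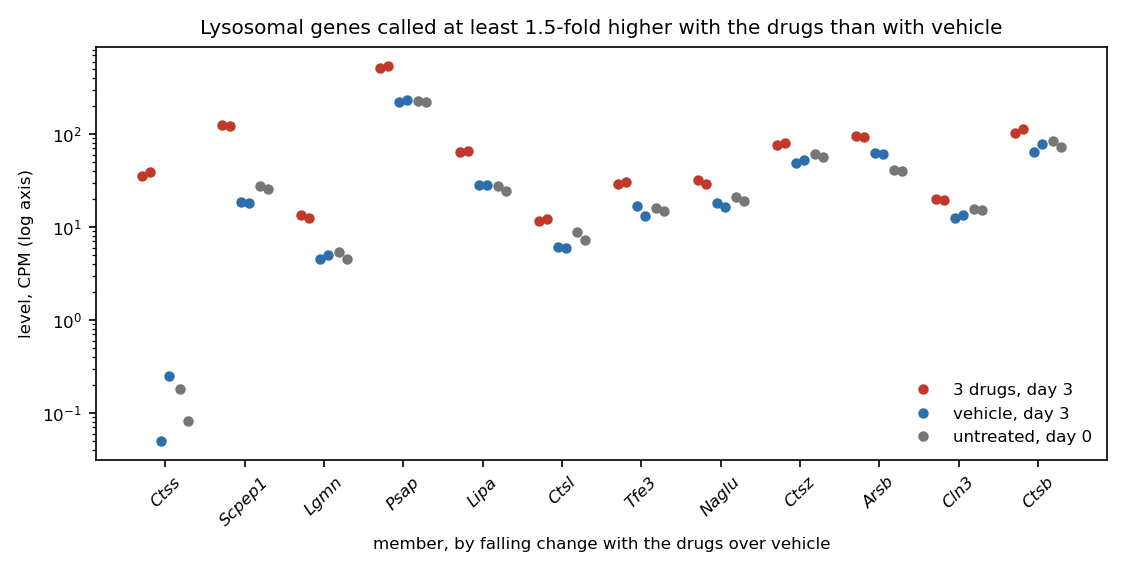
Level in CPM (y axis, log scale) in each of the 6 libraries for the 12 lysosomal genes called at least 1.5-fold higher with the drugs than with vehicle, in order of falling change (x axis); each point is a library, red for the drugs, blue for vehicle and grey for untreated cells, and the vehicle library with 0 counts of Ctss is drawn at 0.05. Both red points lie above both blue points for each of the 12 genes, and Ctss alone is near 0 without the drugs.

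Of the other proteases 3 of 4 rose. Scpep1, a serine carboxypeptidase at chr11:88924020-88955442, had 125 and 122 CPM with the drugs, 18.6 and 18.3 CPM with vehicle and 27.8 and 25.7 CPM in untreated cells. The drug libraries stood far above the rest, and vehicle lay below untreated cells. The rise over vehicle was 2.74 ± 0.0819 on the log2 scale, or 6.68-fold (adjusted p = 7.02e-11), the largest called change of a member after Ctss in this comparison. Ctsa, encoding the carboxypeptidase that protects beta-galactosidase and neuraminidase in a complex, rose by 0.51 (adjusted p = 5.95e-04), and its partners Glb1 and Neu1 rose by 0.51 and 0.42 (adjusted p = 6.47e-04 and 0.00398). Glb1 shares its strand with the overlapping gene Tmppe, and Ctsa overlaps Neurl2 and Pltp on the opposite strand, so their counts are less certain. Over all libraries Neurl2 had 162 counts and Pltp 0. Scpep1 overlaps 4930405P13Rik on the opposite strand, which also had 0 counts. Tpp1, tripeptidyl peptidase 1, rose by 0.33 (adjusted p = 0.00583). The calls of Neu1 and Tpp1 were lost without drug replicate 2, at adjusted p of 0.0676 and 0.0718.

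Cathepsin D was not called. Ctsd encodes the aspartic protease of the lysosome and had 315 and 325 CPM with the drugs, 287 and 311 CPM with vehicle and 421 and 362 CPM in untreated cells. Both groups of day 3 were below both untreated libraries, and the drug libraries were slightly above vehicle. The change with the drugs over vehicle was 0.10 (95% interval −0.09 to 0.28, adjusted p = 0.418), so a rise as large as that of any called protease lies outside the interval. Per kilobase of gene model, Ctsd had the highest level of the members averaged over the groups, 164 CPM per kb with the drugs, 153 with vehicle and 200.4 in untreated cells.

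Progranulin and cystatin C act beside the proteases. Grn encodes progranulin, a lysosomal and secreted protein cut into granulins, and had 118 and 117 CPM with the drugs, 87.2 and 79.98 CPM with vehicle and 101 and 99.4 CPM in untreated cells. The 3 groups did not overlap, vehicle being lowest, and Grn rose by 0.49 over vehicle (adjusted p = 1.57e-04). Cst3, encoding the secreted cathepsin inhibitor cystatin C, changed by 0.30 (adjusted p = 0.113) and was not called. It was called with only the 2 groups in the fit (adjusted p = 0.0383), with no low-count filter (0.00337), without vehicle replicate 2 (0.0355), and without untreated replicate 1 (0.0258) or 2 (0.0283).

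Of the 11 enzymes of lipid breakdown and their activators, 8 rose, with a median of 0.45 over all 11. Psap, at chr10:60277628-60302600, encodes prosaposin, which is cut into the saposins that lift sphingolipids out of membranes for their hydrolases. It had 509 and 541 CPM with the drugs, 218 and 233 CPM with vehicle and 226 and 219 CPM in untreated cells. Vehicle and untreated cells overlapped, and the drug libraries were more than 2-fold higher, by 1.22 ± 0.0752 on the log2 scale over vehicle (adjusted p = 7.48e-08). Psap gained 27.3% of the whole difference in summed member CPM between the drugs and vehicle, by far more than the next, Scpep1 with 9.55% and Lamp2 with 7.38%. Per kilobase it ranked first of the members with the drugs, at 192 CPM per kb, and behind 3 others with vehicle, at 82.5 CPM per kb.

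Lipa encodes the acid lipase that frees cholesterol and fatty acids from lipoprotein esters. It had 64.8 and 65.2 CPM with the drugs, 28.6 and 28.6 CPM with vehicle and 27.9 and 24.5 CPM in untreated cells. Only the drug libraries were raised, by 1.18 ± 0.0853 over vehicle (adjusted p = 3.61e-07). Npc2, which hands the freed cholesterol to the membrane protein NPC1, had 184 and 196 CPM with the drugs, 126 and 137 CPM with vehicle and 160.4 and 127 CPM in untreated cells, and rose by 0.53 over vehicle (adjusted p = 0.00123). Npc1 itself, which was not called, had 33.3 and 35.2 CPM with the drugs, 41.0 and 38.3 CPM with vehicle and 39.05 and 37.0 CPM in untreated cells, a change over vehicle of −0.21 (adjusted p = 0.0773). The difference between the changes of the 2 genes was not tested, and Npc1 overlaps 3110002H16Rik on the opposite strand.

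The enzymes that rose by less were Ppt1, which removes palmitate from proteins, by 0.49 (adjusted p = 2.08e-04), Arsa, the sulfatase of sulfatide, by 0.45 (0.00233), and Asah1, acid ceramidase, by 0.44 (4.9e-04). The other 3 lipid enzymes were not called: Gla, alpha-galactosidase A, changed by 0.24 (adjusted p = 0.0557), Hexa, the alpha subunit of beta-hexosaminidase, by 0.02 (0.899) and Smpd1, acid sphingomyelinase, by −0.07 (0.709). The interval of Hexa, −0.15 to 0.19, leaves out the median change of the members, while that of Gla, 0.05 to 0.44, nearly reaches it. Gla was called without untreated replicate 1 (adjusted p = 0.0455) and without untreated replicate 2 (0.0456).

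Of the 7 enzymes of glycan and glycogen breakdown, 4 rose. Naglu, an enzyme of heparan sulfate breakdown, had 31.9 and 29.2 CPM with the drugs, 18.3 and 16.3 CPM with vehicle and 20.9 and 18.9 CPM in untreated cells. The drug libraries were apart from the other 4, and the rise over vehicle was 0.82 ± 0.109 (adjusted p = 9.75e-05). Arsb, the sulfatase of dermatan sulfate, had 95.4 and 92.7 CPM with the drugs, 61.9 and 60.8 CPM with vehicle and 41.3 and 40.0 CPM in untreated cells. Its 3 groups stood apart in 2 steps, and it rose by 0.62 ± 0.0689 with the drugs over vehicle (adjusted p = 2.04e-05). Man2b1, lysosomal alpha-mannosidase, rose by 0.58 ± 0.0678 (adjusted p = 2.86e-05), and Gaa, the glycogen-degrading alpha-glucosidase, by 0.38 (0.0018). Without drug replicate 1 Gaa was not called (0.0504).

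The remaining glycan enzymes showed no called change. Gusb, beta-glucuronidase, changed by −0.09 (95% interval −0.25 to 0.06, adjusted p = 0.355), Manba, beta-mannosidase, by −0.10 (−0.26 to 0.05, 0.293) and Fuca1, alpha-fucosidase, by 0.14 (−0.10 to 0.39, 0.367). The 2 mannosidases thus had intervals that do not meet, with Man2b1 at 0.44 to 0.73. Gusb was second among the members per kilobase averaged over the groups, and behind Psap and Ctsd with the drugs. It had 127 CPM per kb with the drugs, 136 with vehicle and 143 in untreated cells, so that 2 of the most abundant members, Ctsd and Gusb, were among those not called.

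Among the membrane proteins 4 of 6 rose. Cln3, a membrane protein mutated in juvenile Batten disease, had 20.3 and 19.5 CPM with the drugs, 12.6 and 13.5 CPM with vehicle and 15.7 and 15.2 CPM in untreated cells. Its 3 groups did not overlap, with vehicle lowest, but vehicle over day 0 was not called (adjusted p = 0.214). The rise of Cln3 with the drugs over vehicle was 0.60 ± 0.112 (adjusted p = 0.00132). Mcoln1 encodes the calcium channel TRPML1, whose activity is known to bring TFEB into the nucleus. It had 21.1 and 18.4 CPM with the drugs, 13.6 and 15.0 CPM with vehicle and 15.1 and 14.3 CPM in untreated cells, so that only the drug libraries stood apart. The rise over vehicle was 0.46 ± 0.12 (adjusted p = 0.0106), but the call was lost with DESeq2 (0.0503), without drug replicate 1 (0.128) and without vehicle replicate 1 (0.0757).

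LAMP1 and LAMP2 are the most abundant glycoproteins of the lysosomal membrane. Lamp1 had 186 and 191 CPM with the drugs, 159 and 169 CPM with vehicle and 150.4 and 124 CPM in untreated cells. The order was the same as for Arsb, but the steps were small, and the change over vehicle of 0.20 ± 0.0876 was not called (adjusted p = 0.0983). It was called with only the 2 groups in the fit (adjusted p = 0.0266) and without untreated replicate 1 (0.0239) or 2 (0.0249). Lamp2, which also serves autophagy, had 287 and 278 CPM with the drugs, 206 and 196 CPM with vehicle and 186 and 186 CPM in untreated cells, and rose by 0.49 over vehicle (adjusted p = 1.54e-04). Scarb2, which carries beta-glucocerebrosidase to the lysosome, rose by 0.37 (adjusted p = 0.00295).

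The sorting receptors differed in direction. Sort1 encodes sortilin, which carries prosaposin and other cargo from the Golgi without the mannose tag, and had 124 and 119 CPM with the drugs, 96.6 and 95.1 CPM with vehicle and 53.1 and 53.5 CPM in untreated cells. It rose by 0.34 over vehicle (adjusted p = 0.00151). M6pr, the cation-dependent receptor of the mannose tag, had 157 and 169.6 CPM with the drugs, 192 and 203 CPM with vehicle and 204 and 199.5 CPM in untreated cells. Both drug libraries were lowest, and M6pr fell by 0.27 on the log2 scale (SE 0.0715, adjusted p = 0.0113), a call that did not hold without drug replicate 1 (0.19) or vehicle replicate 2 (0.0543). Igf2r, the larger, cation-independent receptor of that tag, was at the limit of detection, with 5 and 2 counts with the drugs, 3 and 4 with vehicle and 2 and 2 in untreated cells, although its promoter holds TCACGTGA at 2 places.

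Of the 2 transcription factors, Tfe3 rose and Tfeb was not called. Tfe3 had 28.7 and 30.8 CPM with the drugs, 17.0 and 13.04 CPM with vehicle and 16.1 and 14.8 CPM in untreated cells. The drug libraries were nearly 2-fold above the rest, and the rise over vehicle was 0.98 ± 0.126 (adjusted p = 6.41e-05). Tfeb had 5.20 and 6.45 CPM with the drugs, 5.06 and 4.51 CPM with vehicle and 6.10 and 4.98 CPM in untreated cells, and per kilobase averaged over the groups it had the lowest level of the tested members, although Ctss was lower with vehicle and in untreated cells. The drug libraries overlapped untreated cells, and the change over vehicle was 0.29 ± 0.194 (95% interval −0.13 to 0.71, adjusted p = 0.274). Both factors are known to be controlled mainly by their place in the cell, which RNA levels do not show.

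Members with and without the promoter letters had similar median changes, a description with no test. Among tested members with a window, the 12 with CACGTG had a median log2 change of 0.485 with the drugs over vehicle and 9 of them were called higher. The 22 without it had a median of 0.487 and 15 were called higher. Ctss is among both the 22 and the 15, and the low-count filter fixed the direction of its call. Ctsb, Asah1, Npc1, Sort1 and M6pr were tested but had no window, so they are in neither group. Of the 5 tested members with TCACGTGA, Ctsa, Cln3 and Mcoln1 were called higher, and Ctsd and Gla, printed above with them, were not. Lamp1, with 4 copies of CACGTG, was not called either.

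**Figure D4:**
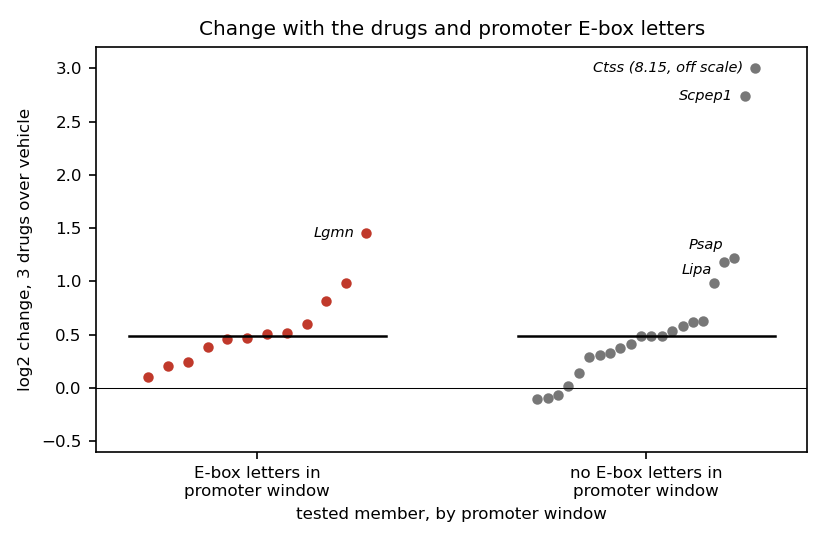
Log2 change with the drugs over vehicle (y axis) of the tested lysosomal genes with a promoter window, for 12 genes whose window holds E-box letters in red on the left and 22 whose window holds none in grey on the right; the bars are medians and Ctss, at 8.15, is drawn at the top. The medians are 0.485 and 0.487. Genes with changes above 1 are named, and for Ctss the low-count filter fixed the direction.

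The summed level of all 42 members was 4174 and 4258 CPM in the drug libraries, 3083 and 3151 CPM with vehicle and 3320 and 3099 CPM in untreated cells. Means were 4216 ± 59.1 CPM for the drugs, 3117 ± 48.4 CPM for vehicle and 3209 ± 156 CPM for untreated cells (SD, n = 2 each). The drugs stood 35.3% above vehicle and 31.4% above day 0, and vehicle and untreated cells overlapped. With 2 libraries a group an exact permutation test cannot go below p = 0.333, so no test was made. The 5 members with the most counts, Ctsd, Gusb, Psap, Lamp2 and M6pr, took 37.9% and 38.2% of the member counts with the drugs, 40.6% and 40.1% with vehicle and 41.8% and 42.6% in untreated cells. Per kilobase, the lipid enzymes and activators took 29.9% and 30.0% of the summed level with the drugs, 25.1% and 25.5% with vehicle and 24.6% and 24.7% in untreated cells. The share of the cysteine cathepsins was 7.17% and 7.49% with the drugs, 4.54% and 4.90% with vehicle and 5.17% and 5.10% in untreated cells. Ctss alone took 1.64% and 1.73% with the drugs and at most 0.015% in any other library. The share of the sorting receptors was 5.56% and 5.69% with the drugs, 8.48% and 8.54% with vehicle and 7.49% and 8.02% in untreated cells. Their summed level was 282 and 289 CPM with the drugs, 289 and 298 CPM with vehicle and 257 and 253 CPM in untreated cells.

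**Figure D5:**
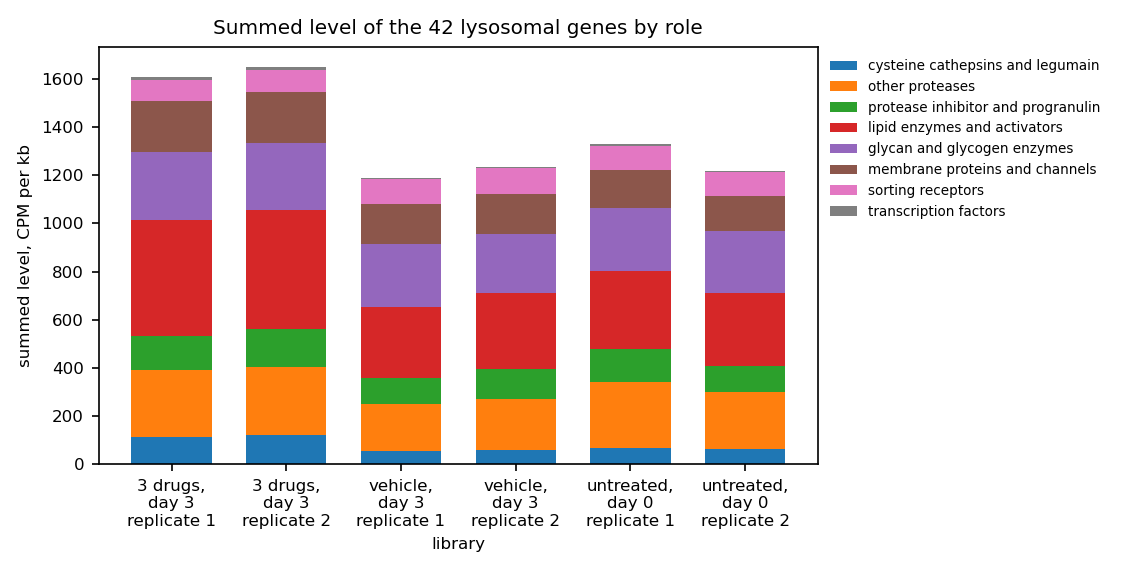
Summed level of the 42 lysosomal genes in CPM per kb of gene model (y axis) in each of the 6 libraries (x axis), stacked by role. The drug bars are the tallest, and the lipid enzymes and activators take 29.9% and 30.0% of them, against 25.1% and 25.5% with vehicle.

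Against untreated cells at day 0 the drugs gave a like picture, from the same drug libraries. Of the 39 tested members 28 were called higher, against 22.7% of all tested genes, and 2, M6pr and Ctsd, were called lower, against 21.2%. A rise of at least 1.5-fold was called for 11 members, against 11.1% of all tested genes, and no fall of that size, against 5.56%. The median change was 0.42, against −0.0075 for all tested genes. Without Ctss, whose direction the low-count filter fixed here too, 27 of 38 members were called higher and the median was 0.41. Scpep1, Lgmn, Lipa and Psap rose by 2.20, 1.37, 1.30 and 1.24, and the fitted change of Ctss, again a description only, was 7.98. Arsb and Sort1 rose more against day 0 than against vehicle, by 1.21 and 1.19, and Tfe3 rose by 0.94. Lamp1 was called only in this comparison, with 0.45 (adjusted p = 0.00119). M6pr fell by 0.30 on the log2 scale (adjusted p = 0.00432) and Ctsd fell by 0.29 (0.0142). Grn, Cln3 and Mcoln1 rose by 0.23, 0.36 and 0.42. Several of these calls did not hold when 1 library was left out, some of them whichever drug library it was. Without drug replicate 1, 8 calls were lost, those of Arsa, Cln3 (0.112), Ctsa, Ctsd (0.135), Gaa, Grn (0.126), M6pr (0.105) and Mcoln1 (0.134), which left 22 members higher and 0 lower. Without drug replicate 2, 6 were lost, those of Cln3 (0.0726), Ctsa, Ctsd (0.0733), Ctsl (0.0665), Grn (0.104) and Npc2. Ctsd (0.093) and Gaa were lost without untreated replicate 1, and Ctsa without untreated replicate 2. DESeq2 lost Grn (0.0638), Cln3 (0.0973) and Mcoln1 (0.0536), and library totals as the only scaling lost Ctsd (0.135).

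After 3 days of culture with vehicle few lysosomal genes had changed from day 0. Of the 39 tested members 2 were called higher, against 3.75% of all tested genes, and 3 lower, against 3.99%, shares of 5.13% and 7.69% that are near the background at such counts. Both rises were at least 1.5-fold, against 1.14% of all tested genes, and no fall was, against 1.78%. The median change was −0.07, against −0.017 for all tested genes. Sort1 rose by 0.85 ± 0.0685 (adjusted p = 1.8e-05) and Arsb by 0.59 ± 0.0729 (4.92e-04), the 2 members called higher in all 3 comparisons. Scpep1 fell by 0.54 on the log2 scale (SE 0.0908, adjusted p = 0.00351), Ctsd by 0.39 (SE 0.0851, 0.0154) and Grn by 0.26 (SE 0.0699, 0.0387). Scpep1 and Grn were thus lower with vehicle than at day 0 and higher with the drugs than in either. Without untreated replicate 2, 6 members were called lower, and without vehicle replicate 1 only 1. The changes of Lamp1, Tfe3, Mcoln1 and Tfeb were 0.25, −0.05, −0.04 and −0.23 and none was called. The calls of Sort1, Arsb and Scpep1 held under all 14 alternatives for these genes. The call of Grn was lost in 9 of 14, among them each omission of a library except untreated replicate 2, with adjusted p of 0.0588 to 0.165 in those omissions, and with the replicate block (0.0886). That of Ctsd was lost without vehicle replicate 1 (0.132) or untreated replicate 1 (0.0861), with the block (0.0566), with only the 2 groups (0.0572) and with library totals (0.0989), and Lamp1 was called higher without untreated replicate 1 (0.0129), with library totals (0.0452) and with no low-count filter (0.0122). With library totals, which do not correct for the larger Rn45s share of untreated cells, all genes shifted by a median of 0.10, 1742 genes were called higher and 216 lower, and 6 members were called higher and 1 lower.

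Other genes of the lysosome and its supply, from lists drawn up by function, are given by their own counts, and their difference from the members was not tested. Beside these counts stand the 18.1% of all tested genes called higher with the drugs than with vehicle and the 13.8% called lower. Of 33 tested hydrolases outside the members 12 were higher with the drugs than with vehicle and 2 lower, with a median of 0.14. The largest rise was that of Pgcp, the table's older name for the carboxypeptidase Cpq, with 2.29 ± 0.498 (adjusted p = 0.00372) at only 15 and 25 counts with the drugs and 2 and 5 with vehicle. Prcp and Hyal2, a carboxypeptidase and a hyaluronidase, fell by 0.40 and 0.39. Of 30 further membrane proteins 9 were higher and 2 lower, with a median of 0.19. Slc11a1, the NRAMP1 metal transporter of phagocytes, had 27.3 and 25.8 CPM with the drugs against 4.58 and 4.85 CPM with vehicle, and Slc15a3, a histidine and peptide transporter, had 70.8 and 66.8 CPM against 18.2 and 17.7 CPM. Their changes were 2.49 ± 0.139 and 1.94 ± 0.0865 (adjusted p = 3.22e-08 and 4.45e-09), while the calcium channel gene Tpcn1 and the tetraspanin gene Cd63 fell by 0.81 and 0.31.

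The proton pump that acidifies the lysosome had 6 of 17 tested genes higher and 1 lower, with a median of 0.12. Atp6v1g1 and Atp6v0a1 rose by 1.53 ± 0.109 and 1.19 ± 0.0877 (adjusted p = 3.26e-07 and 4.6e-07), and Atp6v0a2, which encodes an alternative form of the subunit made by Atp6v0a1, fell by 0.33 (0.016). Of 28 genes of transport to the lysosome 4 were higher and 1 lower (median 0.01), of 20 genes of mTORC1 and TFEB control 4 were higher and 3 lower (median 0.03), and of 28 autophagy genes 8 were higher and 1 lower (median 0.15). The shares called higher of the transport and control lists, and the share called lower of the control list, are near those of all tested genes. Among transport genes Vps11, of the tethering complexes, rose by 0.44 and Arl8a, a GTPase of lysosome movement, by 0.31, while the adaptor gene Ap1b1 fell by 0.23. Among control genes Tfec, a relative of TFEB, rose by 0.66 and Fnip1, a partner of folliculin, by 0.45, while the kinase gene Mtor fell by 0.27 and its upstream inhibitor Tsc2 by 0.24. Among autophagy genes Atg12 and Atg10, of the conjugation machinery, rose by 0.74 and 0.59, and the cargo receptor gene Optn fell by 0.53. Of 5 tested cathepsin inhibitors outside the members 4 were higher and 1 lower. Stfa1, a stefin, had 21 and 16 counts with the drugs and 0 and 6 with vehicle, a change of 2.40 ± 0.682 (adjusted p = 0.0173) that rests on few reads. Cstb, a cytosolic inhibitor of cathepsins, rose by 0.96 ± 0.233 (adjusted p = 0.00742), and Cst7, which encodes an inhibitor found in the lysosome, fell by 0.45 (0.0024).

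Summed markers of several mature myeloid cell types were higher with the drugs than with vehicle, and so were those of lymphoid and stromal cells. Of these sums, those of macrophage, monocyte, mast cell and stromal markers were lower with vehicle than in untreated cells. That of neutrophil markers was higher, and the lymphoid sums overlapped. The part of these markers in the result was not tested. The summed level of 11 macrophage markers was 99.9 and 101 CPM with the drugs, 30.1 and 27.5 CPM with vehicle and 39.5 and 34.8 CPM in untreated cells. All 4 of its tested genes, Csf1r, Emr1, Cd68 and Cd14, rose, while C1qa, C1qc, Mertk and Marco had 0 counts in all libraries. The 8 monocyte markers summed to 1327 and 1440 CPM with the drugs, 983 and 925 CPM with vehicle and 1149 and 1213 CPM in untreated cells, with 5 of 7 tested genes higher and 2 lower. The 10 mature neutrophil markers summed to 3501 and 3818 CPM with the drugs, 16.3 and 21.5 CPM with vehicle and 14.8 and 13.4 CPM in untreated cells, with 3 of 5 tested genes higher, and Camp and Retnlg at 0 counts in all libraries. The median log2 change of the 5 tested genes over vehicle was only 1.19, so the rise of the sum rests on few of them. The 10 mast cell and basophil markers summed to 1380 and 1288 CPM with the drugs, 568 and 553 CPM with vehicle and 1166 and 981 CPM in untreated cells, with 3 of 5 tested genes higher and 1 lower, and Tpsb2, Tpsab1 and Fcer1a at 0. Among 8 osteoclast markers 3 were at 0 in all libraries, and of 3 tested 1 fell. The 9 dendritic cell markers were low in every group, summing to 4.40 and 3.55 CPM with the drugs, 4.66 and 3.68 CPM with vehicle and 8.67 and 7.06 CPM in untreated cells, and the 1 tested was not called over vehicle. The 8 erythroid and megakaryocyte markers summed to 17.7 and 13.9 CPM with the drugs, 13.5 and 17.3 CPM with vehicle and 40.8 and 30.2 CPM in untreated cells, with neither of 2 tested called over vehicle. The 7 lymphoid markers summed to 14.9 and 13.5 CPM with the drugs and 5.29 and 5.10 CPM with vehicle, with both tested genes higher. The 8 stromal markers summed to 39.6 and 36.4 CPM with the drugs, 27.3 and 21.0 CPM with vehicle and 34.4 and 30.7 CPM in untreated cells. Of them, 1 of 2 tested genes was higher with the drugs than with vehicle, and 4 of the 8 were at 0 in all libraries.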

How the data were processed

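The deposited table holds whole-number counts of reads per gene for 6 libraries, not normalized, as the authors made them. The submitters' processing notes name STAR 2.7.0f, deepTools 3.0.2 and the genome build mm10, and sample labels refer to a featurecount table. How strand and multiply matching reads were handled, and with which annotation, are points not given in the sources used here. The Length column of the authors' table, in base pairs, was used only for CPM per kb.

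Counts were filtered with filterByExpr, which left 11283 genes, scaled by TMM and fitted in 1 model of the 3 groups with edgeR 4.0.16 under R 4.3.3, which leaves 3 residual degrees of freedom. The common coefficient of biological variation was 0.0592. Each comparison was a quasi-likelihood F test, adjusted by Benjamini-Hochberg across the tested genes and called at 0.05. The SE was derived from F, and log2 changes carry a prior count of 0.125. With 2 replicates a group, p-values rest on a spread shared by the 3 groups. The script was tested on simulated data.

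The members and lists were chosen with earlier results of these data known. Values of every library are given for members called with at least 1.5-fold change over vehicle, the 5 largest called changes of vehicle over day 0, Tfeb, Tfe3, Mcoln1, Lamp1 and members near 0 counts. Lamp2, Npc1 and Npc2 and, outside the members, Slc11a1 and Slc15a3 were added after their values were seen. Outside the members, the 2 largest called changes in each direction are named for each list, except that some genes are not reported here. Exact binomial intervals are used for ratios of few counts. The alternatives were other scalings (RLE as in DESeq2, library totals, Rn45s left out), other low-count filters, DESeq2 1.42.0, a fit of only the 2 groups, a replicate block and each library left out in turn. Promoter windows are from RefSeq on GRCm38.p6.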

Additional observations from a re-analysis of the deposited data

How the results depend on the processing

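For the drugs over vehicle, the counts of members called, of all genes called and the median of members stayed within 1.5 times of the values above under the 8 alternatives that keep all libraries. Leaving out 1 library gave 25 to 30 members called higher, 0 to 1 lower, 1251 to 2291 genes higher, 582 to 1900 lower and a median of 0.44 to 0.48, the lowest counts of genes coming without drug replicate 1. For the drugs over day 0 the ranges were 22 to 28 members higher, 0 to 2 lower, 1667 to 2632 genes higher, 1205 to 2625 lower and a median of 0.34 to 0.48. For vehicle over day 0 they were 2 to 3 members higher, 1 to 6 lower, 155 to 850 genes higher, 196 to 1161 lower and a median of −0.11 to 0.0016. A left-out library leaves 1 sample in its group, which is assumed to vary like the others.

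Scaling by library totals gave, for the drugs over day 0, 1322 genes called lower (70.4% of calls higher, against 51.7%), a median of members of 0.51 and 1 member called lower. For vehicle over day 0 it gave 1742 genes higher and 216 lower (89% of calls higher, against 48.5%), 6 members higher and 1 lower and a median of 0.0514, while the median of all genes moved to 0.10. The other counts of genes for vehicle over day 0 were 821 higher and 843 lower with no low-count filter, 255 and 236 with DESeq2, 269 and 258 with only the 2 groups, and 222 and 261 with the replicate block. Members called lower there were 1 with the block and 1 with only the 2 groups. The causes of these changes were not tested.

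The replicate block left 27 members higher and 1 lower for the drugs over vehicle. The labels do not say that replicate numbers pair cultures: same-numbered libraries deviated from their group means with a correlation across genes of 0.0807 for the drugs and vehicle, −0.0604 for the drugs and day 0 and −0.199 for vehicle and day 0.

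No called change of a tested member reversed in any of the 14 alternatives. Of uncalled changes of all tested members, library totals changed the sign of 10 for vehicle over day 0 and of 1 in each comparison of the drugs. Among members given with values these were Hexa for the drugs over vehicle (−0.0166), and Mcoln1 (0.0783) and Tfe3 (0.0726) for vehicle over day 0. Leaving out 1 library gave −0.0441 to 0.0616 for Hexa and −0.169 to 0.0077 for Smpd1 for the drugs over vehicle, −0.105 to 0.0298 for Mcoln1 and −0.251 to 0.143 for Tfe3 for vehicle over day 0, and −0.11 to 0.236 for Tfeb for the drugs over day 0.

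Depth limits Ctsk, Ctsh and Igf2r, with at most 5 counts in a library, and the size of the Ctss change. Unknown strand handling limits Ctsb, Ctsz, Ctsa and Npc1. Summed CPM with Rn45s left out lay higher in all 6 libraries, with the drugs still highest.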
